A study of Homo sapiens with 20 samples.

Results

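The 8 genes TCP1, CCT2, CCT3, CCT4, CCT5, CCT6A, CCT7 and CCT8 encode the subunits of the chaperonin TRiC, also called CCT. They were taken by name from a table of read counts for 17113 protein-coding genes, and 8 of the 8 were present. The table covers 10 lines of human colorectal cancer (COLO-201, HCT 116, HT-29, LoVo, LS1034, LS123, LS513, SNU-C1, SW480 and WiDr), each sequenced once from its cells and once from the extracellular vesicles it released, which gives 20 libraries. The labels describe every line as a wild-type, untreated adenocarcinoma line, with LS1034 and LS513 from the cecum and the other 8 from the colon, grown in RPMI-1640 or DMEM with fetal bovine serum. Cell RNA went through a stranded kit with ribosomal RNA depletion, while vesicle RNA came from an exosome isolation kit and was amplified by SMART-Seq v4 for low inputs and tagged by Nextera XT, so that compartment and library kit cannot be told apart. The comparison asks how far the RNA of vesicles mirrors that of the cells that shed them.

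TRiC is a barrel of 2 stacked rings, each built from the 8 different subunits in a fixed order, that encloses newly made proteins and closes over them as ATP is hydrolysed. Actin and tubulin are its best known clients, along with many proteins of the WD40-repeat type, and prefoldin and the phosducin-like proteins hand clients over or modulate the ring. TCP1, CCT2, CCT4 and CCT5 form the side of the ring that binds ATP with high affinity, and CCT3, CCT6A, CCT7 and CCT8 the other side. The assembled ring holds its subunits in equal number, and rapidly growing and tumour cells are known for abundant TRiC.

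The libraries were unequal in ways that touch every value given here. Cell libraries held 24.8 to 37.4 M counts and vesicle libraries 1.75 to 24.4 M. Vesicle libraries also held reads of genes silent in the cells, and the part that a fit on gene length and GC content describes is called background here. That fit does not account for all such reads, since CSF1R, HBB and VWF were still called higher in vesicles after subtraction (log2 change 6.44, 7.31 and 6.22). Its share, estimated from 2077 genes at or under 10 counts in the cell library of every line and scaled by exonic length and GC content, was 1.87% to 6.54% of vesicle counts in SW480, COLO-201, HT-29, HCT 116 and LS513 (the lower-background lines) and 17.6% to 46.0% in LS1034, LoVo, WiDr, LS123 and SNU-C1 (the higher-background lines). In cell libraries it was 0.0333% to 0.152%. The lower-background vesicle libraries were also the deeper ones, at 4.62 to 24.4 M counts against 1.75 to 4.51 M, so background share and depth cannot be told apart. The deviations of lines from the mean of the cell libraries correlated at 0.805 between HT-29 and WiDr, which are known to derive from the same tumour, and at 0.804 between HCT 116 and LS123, with the next pair at 0.328. The lines are therefore not 10 independent samples. In the vesicle libraries, however, the same 2 pairs of lines correlated at -0.363 and -0.358, so their likeness in cells was not seen there. HCT 116 and LS123 carry labels of separate lines, and whether the cell library labelled LS123 is that line was not tested, so its values are given under that label. Without HCT 116 and LS123 the vesicle-to-cell change given below was still negative for the 8 subunits, with a median of -0.78 against 0.02 over all genes. CCT5 alone was called, where 26.1% of all genes were called lower. With 1 library per line and compartment, p-values measure spread between lines, and spread between cultures is unknown. In bulk RNA of this kind, fewer vesicles carrying an mRNA and fewer copies per vesicle cannot be told apart.

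Markers of the labelled cell type were present. All 11 colorectal epithelial markers examined (among them EPCAM, KRT8, KRT20, CDX2 and VIL1) had a mean of at least 1 CPM (a gene's count scaled by its library's total) in both compartments, and their summed level was 3018 to 19670.3 CPM in cells and 3085 to 17755 CPM in vesicles, although EPCAM and CDH1 were lower in vesicles, at -3.13 and -4.22 on the log2 scale (edgeR adjusted p = 1.17e-05 and 1.82e-06). Markers of leukocytes summed to 0.0303 to 6.82 CPM in cells and 7.27 to 139.6 CPM in vesicles, those of erythroid cells and platelets to 0.0908 to 6.11 and 2.60 to 318.9 CPM, those of hepatocytes and serum proteins to 0.0404 to 6.40 and 2.19 to 50.8 CPM, and those of fibroblasts and endothelium to 0.363 to 15.8 and 17.0 to 350.1 CPM. In neither compartment was a marker of these 4 lists in the table at 0 in every library. Their part in the results on the subunits was not tested.

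The subunit mRNAs were abundant in every cell library. On the scale used for levels below, which is CPM with TMM scaling (a per-library factor that aligns the bulk of genes), the 8 subunits summed to a median of 4550.2 CPM in cells, from 3139.5 in LS1034 to 6668 in HCT 116. In vesicles the sum had a median of 2533 CPM and ran from 857 in SNU-C1 to 8220.3 in SW480. The highest cell library thus exceeded the lowest 2.12-fold, and the highest vesicle library the lowest 9.59-fold. As a share of all counts, the 8 genes took 0.271% in LS513 to 0.578% in SW480 cells, and 0.157% in SNU-C1 to 0.698% in SW480 vesicles.

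Which lines lay high or low differed between the compartments. SW480 and HCT 116 had the highest sums in both. LS123 cells, at 5935 CPM, came next among cell libraries, whereas LS123 vesicles stood at 1888 CPM. The sum rose from cells to vesicles in 2 lines, from 3646 to 5097 CPM in HT-29 and from 6414 to 8220.3 CPM in SW480. Scaled by library totals it also rose in HCT 116 (log2 ratio 0.21) and LS513 (0.022), and after background subtraction it rose in the 5 lower-background lines. In HCT 116 it was 6668 CPM in cells and 6554 CPM in vesicles. The deepest drop was that of SNU-C1, from 5087 to 857 CPM.

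**Figure D1:**
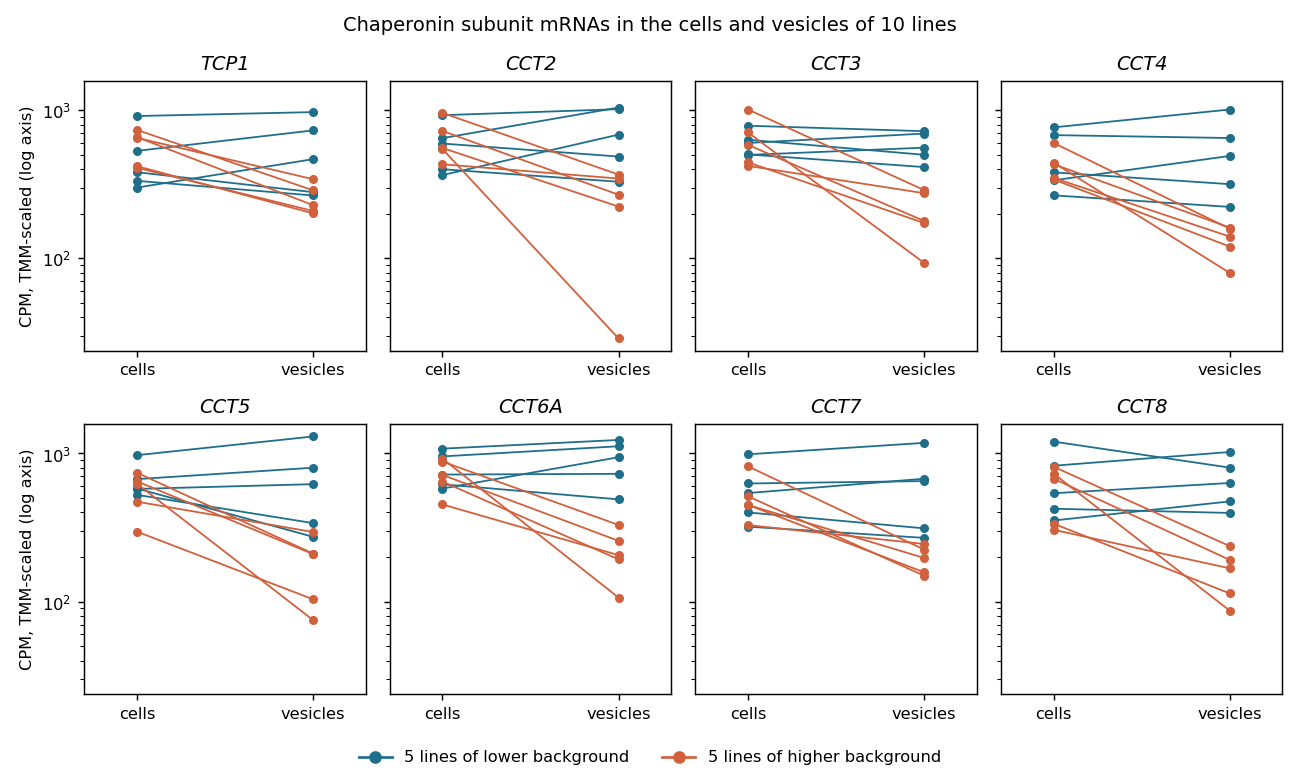
Level of each subunit mRNA in the cells and the vesicles of 10 lines, in CPM with TMM scaling on a log axis, with 1 line drawn per cell line and coloured by the estimated background share of its vesicle library. The 5 higher-background lines slope down in all 8 panels, while the 5 lower-background lines run in both directions, and CCT2 of SNU-C1 reaches 28.8 CPM.

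The upstream sequences of the subunits are described because the 8 mRNAs rose and fell together between lines, as given further on. RefSeq promoters on GRCh38.p14, which is not the hg19 build of the counts, were matched by symbol for 7 of the 8, all but CCT6A. For CCT5 the listed start lies 616 bases inside the principal GENCODE 29 transcript, and it was left out. For the 6 others the offset is 70 to 173 bases, so the windows hold some transcribed bases, and only bases before the earlier of the starts are printed. CCAAT boxes (CCAAT on either strand) occurred within 250 bases before the RefSeq start in 4 of 6 (TCP1, CCT2, CCT3 and CCT8) and in 34.2% of 13513 genes of the table. GC boxes (GGGCGG, either strand) occurred in the same 4 and in 59.6% of genes. A heat shock element core (GAANNTTC or TTCNNGAA) was found in TCP1 alone of the 6 and in 9.41% of genes, the ETS core CCGGAAG in CCT2 alone and in 12.9%, and the E-box CACGTG in 0 of 6 and 7.87%. No motif searched overlapped another in the 6. Only the heat shock element core and CCAAT box of TCP1 and the GC box of CCT8 lay before the principal start. All other matches, including every match of CCT2 and CCT3, lay downstream of it. The shares of all genes refer to the full 250 bases before the RefSeq start. TCP1 (chr6:159789750-159789852, minus strand) is shown for the heat shock element core, and CCT8 (chr21:29073798-29073898, minus strand) as the subunit that varied most between cell libraries. Capitals mark the matches, which in TCP1 are the heat shock element core and a CCAAT box on the other strand, and in CCT8 a GC box on the other strand.
TCP1: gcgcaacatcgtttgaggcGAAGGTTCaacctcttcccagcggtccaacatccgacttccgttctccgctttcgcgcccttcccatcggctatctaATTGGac
CCT8: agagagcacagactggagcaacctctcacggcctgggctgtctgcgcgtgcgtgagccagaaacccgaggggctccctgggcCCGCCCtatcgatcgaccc

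A match is a description of the letters. A gene that starts within 1000 bases on the opposite strand and points away was found for 2 of the 6 subunits, against 10% of all genes compared. MRPL18, a mitochondrial ribosomal protein gene, starts 210 bases from TCP1, and TSACC 234 bases from CCT3. Over the 10 cell libraries MRPL18 correlated with TCP1 at r = 0.814, and its vesicle-to-cell change was 0.052 (edgeR adjusted p = 0.902). TSACC was low, at a mean of 2.01 CPM in cells (SD 0.488, n = 10).

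On the side of the ring with high ATP affinity, TCP1, the founding member of the family and the alpha subunit, stood at 300.5 to 914 CPM in cells with a median of 475.7, and at 201.4 to 972 CPM in vesicles with a median of 284. HCT 116 was highest in both compartments, and the ranges overlapped nearly in full. The log2 fold change of vesicles over cells was -0.55 (SE 0.27, edgeR adjusted p = 0.0979), with lower vesicle levels in 7 of 10 lines.

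CCT2, the beta subunit, ranged from 365 to 960.5 CPM in cells, median 576, and from 28.8 to 1043 CPM in vesicles, median 357. Its vesicle range was the widest of the 8, 36.2-fold against 4.83-fold for TCP1, with only 92 CCT2 counts in the SNU-C1 vesicle library. The fitted change was -0.66 (SE 0.42, edgeR adjusted p = 0.194), lower in 7 of 10 lines.

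CCT4, the delta subunit, had 266 to 766 CPM in cells, median 407, and 79.8 to 1012 CPM in vesicles, median 192. It fell by 0.82 on the log2 scale (SE 0.33, edgeR adjusted p = 0.0446) and was lower in 8 of 10 lines, HT-29 and SW480 being the exceptions.

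CCT5, the epsilon subunit, had 297 to 974 CPM in cells, median 603, and 75.1 to 1302 CPM in vesicles, median 284. SW480 was highest in both compartments. Its fall of 0.95 on the log2 scale (SE 0.34, edgeR adjusted p = 0.0285) was seen in 7 of 10 lines. An antisense RNA overlaps 30.1% of the CCT5 exonic length and another 9.72% of that of CCT4. Part of these counts is therefore uncertain where strand was not kept by the library kit or not used in counting. A stranded kit was named above for cell RNA only.

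On the other side of the ring, CCT3, the gamma subunit, ranged from 421 to 1012 CPM in cells, median 593, and from 93.3 to 722 CPM in vesicles, median 351. It fell by 0.85 (SE 0.33, edgeR adjusted p = 0.0382), with lower vesicle levels in 8 of 10 lines, again all but HT-29 and SW480.

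CCT6A, the zeta subunit, had 453 to 1078 CPM in cells, median 718, and 106 to 1234 CPM in vesicles, median 409. The change was -0.78 (SE 0.37, edgeR adjusted p = 0.0802), lower in 6 of 10 lines. Its copy CCT6B, known from testis, was far lower, at a mean of 5.25 CPM (SD 3.58, n = 10) in cells and of 8.46 CPM (SD 5.64) in vesicles.

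CCT7, the eta subunit, had 320.5 to 987 CPM in cells, median 482, and 149.6 to 1179 CPM in vesicles, median 257, with a change of -0.67 (SE 0.29, edgeR adjusted p = 0.0609). CCT8, the theta subunit, varied most between cell libraries, 3.94-fold from 305 CPM in LS1034 to 1203 CPM in HCT 116, with a median of 607. In vesicles CCT8 ran from 87.0 to 1023 CPM, median 317, and its change was -0.86 (SE 0.36, edgeR adjusted p = 0.0542). Both were lower in 7 of 10 lines. For every subunit the cell and vesicle ranges overlapped.

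Taking the 10 lines together, then, 3 of the 8 subunits (CCT3, CCT4 and CCT5) fell, 0 rose and 5 did not pass the threshold of 0.05 in edgeR's quasi-likelihood test with cell line as a block. Among all 15130 genes tested, 28.1% were called lower and 28.6% higher. Whether 3 of 8 differs from the share of all genes called lower was not tested. The median change of the 8 was -0.80 against 0.01 over all genes. That gap depended on the genes in the fit. With only the 10064 genes at 0.407 CPM or more in every cell library, the medians were -0.21 and 0.083. There 0 of the 8 were called, where 20.8% of genes were called lower. The calls changed with the scaling and with single lines. With library size only the 8 stood at -0.48 to -0.069 (median over all genes 0.48, 16.3% of genes called lower), with DESeq2 size factors in edgeR at -0.57 to -0.17 (0.38 and 18.5%), with the DESeq2 Wald test at -0.58 to -0.17 (0.64 and 18.6%) and with upper-quartile scaling at -0.20 to 0.20 (0.76 and 11.6%). Of the 8 subunits 0 were called in each of these, and 0 had an unadjusted p under 0.05 except CCT5 in DESeq2. Without the cell line block 0 were called where 22.7% of genes were, and without the filter on low counts 4 were, CCT8 being added, where 25.8% of genes were. When single lines were left out, 0 subunits were called without LS1034, WiDr or LS123, with medians of -0.74, -0.70 and -0.69 and 25.2%, 26.5% and 26.8% of all genes called lower. Without LoVo 0 were called as well, and there the median was -0.37, with 15.8% of all genes called lower and a median over all genes of 0.35. Without SNU-C1 1 was called (median -0.60, 27.1% of genes), without LS513 2 (-0.86, 25.9%), without SW480 5 (-0.95, 28%), and without HT-29 all but CCT2 (-0.98, 27.8%).

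The per-line ratios split along the background share of the vesicle library. With TMM scaling, all 8 subunits were lower in vesicles than in cells in each of the 5 higher-background lines, and the log2 ratio of the sums was -1.02 in LS1034, -1.14 in LoVo, -1.57 in WiDr, -1.65 in LS123 and -2.57 in SNU-C1. In the 5 lower-background lines it was -0.32 in LS513, -0.25 in COLO-201, -0.02 in HCT 116, 0.36 in SW480 and 0.48 in HT-29. The 2 sets of lines did not overlap, although LS513 also had 8 of the 8 subunits lower in vesicles. How many other genes separate these sets was not counted. How many of the 8 were lower depended on the scaling. With library totals the count was 6 in LoVo, 7 in LS1034 and 1 in LS513, and after background subtraction 4 in LoVo, 6 in LS1034, 7 in WiDr and 0 in LS513, with 8 in SNU-C1 and LS123 under each scaling. HT-29 and WiDr, which share their origin, fell on opposite sides: 0 of the 8 subunits were lower in HT-29 vesicles under each scaling, and 8 of the 8 in WiDr vesicles with TMM scaling and with library totals.

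**Figure D2:**
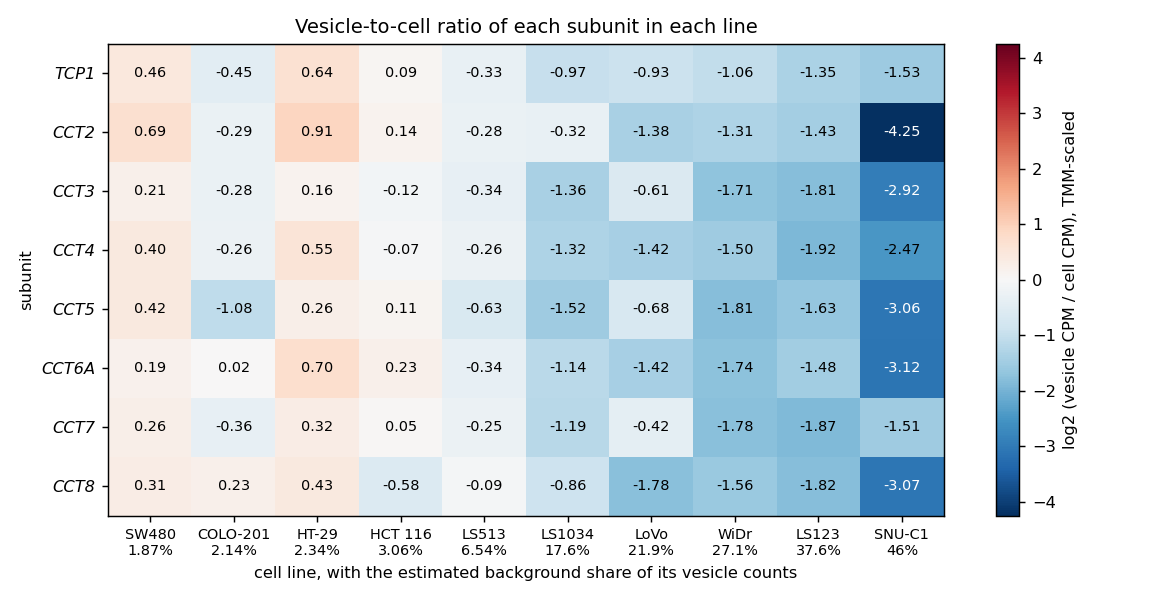
Log2 ratio of vesicle to cell level (TMM-scaled CPM) for each subunit (rows) in each line (columns), with lines ordered by the estimated background share of their vesicle counts, printed under each name. The 5 columns on the right are negative throughout, and CCT2 in SNU-C1, at -4.25, is the lowest cell of the plot.

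Within the 5 lower-background lines the fitted changes ran from -0.16 (SE 0.26) for CCT5 to 0.26 (SE 0.24) for CCT2. Their median was 0.09, against 0.10 over all genes. Of the 8, 0 were called (edgeR adjusted p from 0.416 to 0.910, 0 with an unadjusted p under 0.05), where 38.5% of all genes tested in these lines were. Within the 5 higher-background lines the changes ran from -1.82 (SE 0.38) for CCT8 to -1.18 (SE 0.29) for TCP1. Their median was -1.71, against 0.25 over all genes. Of the 8, 8 were called lower (edgeR adjusted p from 0.00169 to 0.0300), where 25.5% of all genes were called lower. Each of these fits holds 5 lines, and the second was added after the data were seen.

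The difference between the 2 sets of lines was tested as an interaction in the fit on all genes. The vesicle-to-cell change was the more negative in the higher-background lines, with differences from -1.92 (SE 0.41, CCT6A) to -1.25 (SE 0.32, TCP1) on the log2 scale, and 6 of 8 subunits passed (edgeR adjusted p from 0.0401 to 0.0431). CCT2 and CCT5 did not (0.0799 and 0.0616). Among all genes 6.13% were called more negative in the higher-background lines. The call did not hold under other scalings. With library size only 1 subunit, CCT4, passed (edgeR adjusted p = 0.0465), where 2.83% of all genes did in either direction. With DESeq2 size factors in edgeR, with upper-quartile scaling or after background subtraction 0 subunits passed, as did 0 genes of the whole table. The differences stayed negative for the 8 subunits in all of these fits, and 6 to 8 of them had an unadjusted p under 0.05. The share of all genes at that unadjusted threshold was not counted. Over all genes the median difference was 0.31 with TMM, 1.01 with library size only and 0.46 with DESeq2 size factors. It was 0.61 with upper-quartile scaling and -0.33 after background subtraction. The medians of the 8 subunits were -1.70, -1.01, -1.56, -1.41 and -1.14, in that order.

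Background made up a small part of the subunit counts themselves. In the lower-background vesicle libraries it was expected to account for 0.0686% to 0.823% of the summed subunit counts, and in the higher-background ones for 2.54% in LS1034 to 10.2% in SNU-C1. With the expected background subtracted from every gene, the 8 subunits changed by -0.18 (CCT5, SE 0.26) to 0.26 (TCP1, SE 0.18). Their median was -0.01, against -0.14 over all genes. Of the 8, 0 were called (edgeR adjusted p from 0.287 to 0.984, 0 with an unadjusted p under 0.05), where 34.1% of all genes were. The log2 ratios of the sums were then 0.34 to 0.85 in the 5 lower-background lines and -1.22 to -0.15 in the 5 others, so the 2 sets still did not overlap. How many other genes separate the 2 sets was not counted. After subtraction the median difference between the sets was -0.33 over all genes, against -1.14 over the 8 subunits.

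**Figure D3:**
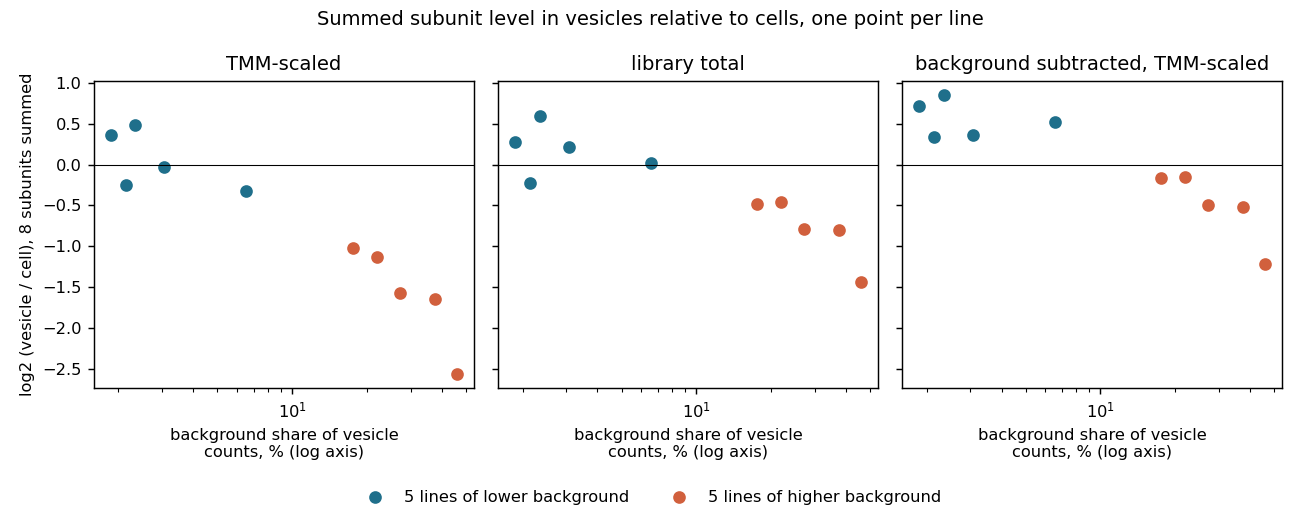
Log2 ratio of the summed subunit level in vesicles to that in cells (vertical axis) against the estimated background share of the vesicle library in percent (log axis), 1 point per line, under 3 scalings. The lower-background lines lie above the others in each panel, from 0.34 to 0.85 after background subtraction against -1.22 to -0.15.

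**Figure D4:**
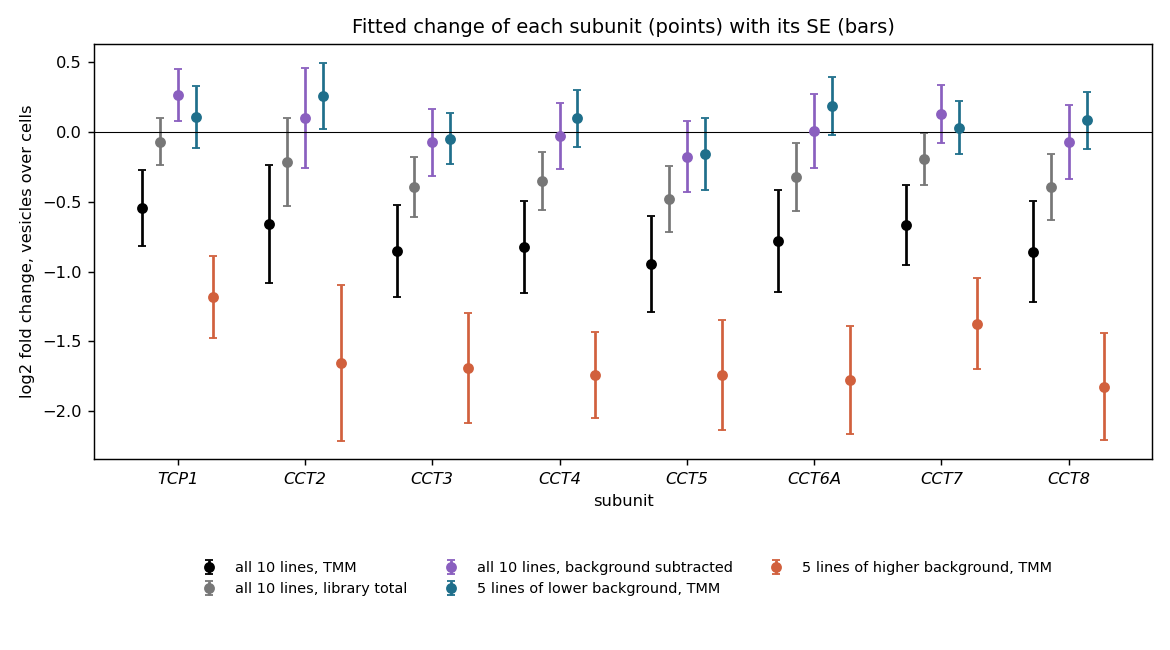
Fitted log2 fold change of vesicles over cells (points) with its SE (bars) for each subunit under 5 settings. Black points (10 lines, TMM) lie between -0.95 and -0.55, those of the 5 lower-background lines between -0.16 and 0.26, and those of the 5 higher-background lines between -1.82 and -1.18.

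No pair of subunits was shown to differ in its vesicle-to-cell change. A ratio of 2 genes within a library does not depend on its scaling, and the difference between 2 subunits in log2 vesicle-to-cell ratio was tested over the 10 lines for the 28 pairs. Of these 0 passed after adjustment (exact sign-flip permutation test, two-sided, smallest adjusted p = 0.328), and 4 had an unadjusted p under 0.05. All of the 4 involved TCP1 or CCT3. The largest mean difference was TCP1 over CCT5, at 0.42 ± 0.50 (SD, n = 10 lines, exact p = 0.0117), with TCP1 retained better in 8 of 10 lines. TCP1 over CCT4 was 0.28 ± 0.34 (exact p = 0.0293) and TCP1 over CCT3 0.34 ± 0.48 (exact p = 0.0430), each in 8 of 10 lines, and CCT3 was below CCT7 by -0.20 ± 0.44 (exact p = 0.0488) in 7 of 10. The smallest p that 10 lines allow is 0.00195, which multiplied by the 28 pairs is 0.0547, so a single pair could not have passed alone.

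Single lines showed wider gaps. In SNU-C1 vesicles CCT2 had 92 counts while TCP1 had 731, CCT7 504 and CCT6A 340, whereas in SNU-C1 cells CCT2 had 15063 and TCP1 18168. The log2 ratio of CCT2 was -4.25 there, against -3.12 to -1.51 for the other 7 subunits of that line. Background was expected to supply 39.5% of those 92 counts, and 5.14% to 18.2% of the counts of the other 7. In COLO-201 CCT5 stood at -1.08 while the other 7 ran from -0.45 to 0.23. In LoVo CCT7, TCP1, CCT3 and CCT5 lay between -0.93 and -0.42, and CCT2, CCT4, CCT6A and CCT8 between -1.78 and -1.38.

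Levels of different genes are comparable only per length. Per kilobase of annotated exon (GENCODE 29), CCT6A led in cells at 194 ± 50.1 CPM per kb (SD, n = 10), followed by CCT8 at 186 ± 85.3, CCT4 at 162 ± 58.7, CCT3 at 154 ± 44.6, CCT7 at 151 ± 59.8, CCT2 at 142 ± 47.5, TCP1 at 108 ± 40.7 and CCT5 at 105 ± 30.3. Neighbours in this order were separated by less than their SD between lines. Only the step from CCT2 to TCP1 held in 9 of 10 lines, and the other steps in 5 to 7. In vesicles CCT6A, CCT8 and CCT4 were again the first 3, at 144 ± 107, 123 ± 95.3 and 118 ± 106 CPM per kb, and TCP1 and CCT5 the last, at 80.9 ± 52.1 and 72.5 ± 65.4. With the length of the principal transcript in place of all exons, CCT8 and CCT2 led in cells at 309.5 ± 142 and 302 ± 101 CPM per kb, CCT6A was the fifth, and CCT4 and CCT5 were lowest at 182 ± 65.9 and 166 ± 48.1. CCT5 had the lowest mean with both lengths and in both compartments, but in cells per kilobase of exon TCP1 exceeded it in only 5 of 10 lines.

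The make-up of the set can be read as shares. As a share of the 8 subunits per kilobase of exon, CCT6A took 16.3% ± 2.06 in cells and 16.0% ± 2.62 in vesicles (SD, n = 10), CCT8 14.9% ± 3.55 and 13.8% ± 3.21, CCT4 13.3% ± 1.73 and 12.9% ± 1.83, and CCT3 13.1% ± 3.01 and 12.2% ± 2.61. CCT7 took 12.6% ± 3.36 and 13.4% ± 3.12, CCT2 11.9% ± 2.54 and 12.9% ± 4.39, TCP1 8.90% ± 1.69 and 10.98% ± 4.48, and CCT5 8.95% ± 2.49 and 7.91% ± 2.33. By this share, which weights lines equally, TCP1 and not CCT5 was the lowest in cells. Each mean moved by less than the SD between vesicle libraries, and TCP1 alone moved by more than the SD between cell libraries. Without SNU-C1 that was no longer so, with TCP1 at 8.73% ± 1.70 and 9.80% ± 2.61 (SD, n = 9). The extremes in vesicles came from TCP1 at 21.6% and CCT2 at 3.10% in SNU-C1.

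Across lines the subunits rose and fell together to a moderate degree in cells and closely in vesicles. Pearson's r of log2 CPM over the 10 cell libraries was 0.0912 to 0.899 for the 28 pairs, with a median of 0.553, and over the 10 vesicle libraries 0.690 to 0.979, with a median of 0.892. These values are descriptions over lines that share depth and background differences in the vesicle libraries. In cells CCT4 followed the mean of the other 7 most closely (r = 0.914) and CCT5 least (0.440). The median gene with at least 10 CPM had an r of -0.03 with the mean of the 8 in cells. The SD of log2 CPM between cell libraries was 0.38 for CCT6A to 0.66 for CCT8, where the median of 10036 such genes was 0.62. Between vesicle libraries it was 0.77 for TCP1 to 1.47 for CCT2, where the median of 11709 genes was 0.92.

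Vesicles followed the cells of their own line only loosely. Over the 10 lines r between cell and vesicle log2 CPM was 0.0578 for CCT3, 0.158 for CCT2, 0.268 for CCT6A, 0.361 for CCT8, 0.386 for TCP1, 0.482 for CCT4, 0.542 for CCT7 and 0.558 for CCT5, where the median of 9621 genes was 0.444. After background subtraction these ran from 0.222 for CCT2 to 0.742 for TCP1.

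The gene whose pattern over the 10 cell libraries was most like the mean of the 8 was SOD1, the cytosolic superoxide dismutase (r = 0.978 among 10028 genes compared), and SOD1 was among the first 5 over the vesicle libraries as well (r = 0.980). PHTF2 (0.936), ATP5MC3, a subunit of the mitochondrial ATP synthase (0.917), PRDX6, a peroxiredoxin (0.916), and STMN3 (0.909) came next in cells. In vesicles the first 3 were TARDBP, an RNA-binding protein (0.985), NUDT5 (0.983) and MAT2A, which makes S-adenosylmethionine (0.982), with PNO1, a ribosome assembly factor, the fifth (0.978). Of the 5 genes named for cells, ATP5MC3 and PRDX6 also had r over 0.9 in vesicles (0.905 and 0.955), whereas PHTF2 had -0.01 and STMN3 0.156. Of those named for vesicles, NUDT5 had r = 0.738 in cells, TARDBP 0.530, PNO1 0.349 and MAT2A -0.358. These genes are the highest of 10028 in cells and 11701 in vesicles over only 10 libraries, and their r was not tested.

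Genes that work with TRiC were taken from lists drawn up from general knowledge. Of the 6 prefoldin subunits, which deliver unfolded actin and tubulin to the ring, 0 were called in either direction, with a median change of 0.18. PFDN5 went from 153 ± 29.8 to 274 ± 140.4 CPM (SD, n = 10; log2 change 0.62, edgeR adjusted p = 0.0863) and PFDN6 from 15.0 ± 2.40 to 7.93 ± 7.22 CPM (-1.48, adjusted p = 0.0552). After background subtraction 4 of the 6 prefoldin subunits were called higher in vesicles (PFDN1, PFDN2, PFDN4 and PFDN5, at 0.89 to 1.38), where 14.9% of all genes were, and PFDN6 stood at -2.75 (adjusted p = 0.0969). In the 5 lower-background lines the count was also 4, where 19.5% of all genes were called higher. The chaperonin had 0 of 8 in both. The difference between the 2 complexes was not tested.

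Of 3 tested phosducin-like and related cofactors 1 was called lower, PDCL at -1.02 (SE 0.25, edgeR adjusted p = 0.00334), but not after background subtraction (-0.56, 0.243) or in the 5 lower-background lines (-0.89, 0.0742). TXNDC9 stood at -0.47 (adjusted p = 0.373). Among 5 tubulin cofactors, which complete tubulin folding after TRiC, TBCC was called lower at -0.96 (adjusted p = 0.0128) and ARL2 stood at 0.54 (0.0705). After background subtraction TBCC was not called (-0.54, 0.373) and 3 of the 5 were called higher (TBCA, TBCB and ARL2), where 14.9% of all genes were. Of the 4 chaperonin-like genes, BBS10 fell by 2.34 (SE 0.31, edgeR adjusted p = 1.95e-05) and BBS12 was at -0.56 (0.426). BBS10 was also called lower after background subtraction (-3.06, edgeR adjusted p = 0.0087) and in the 5 lower-background lines (-2.07, 0.0081). The mitochondrial chaperonin HSPD1 stood at -0.76 (SE 0.34, adjusted p = 0.0698), near the cytosolic subunits, and its co-chaperonin HSPE1 at 0.31 (0.465). HSPE1 was called higher after background subtraction (1.11, edgeR adjusted p = 0.0040), where 14.9% of all genes were. It was also called higher in the 5 lower-background lines (1.22, 0.0037), where 19.5% were. HSPD1 was not called in either (0.054, 0.883 and 0.057, 0.826).

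Among clients, 2 of 15 actin and tubulin genes rose and 3 fell, with a median of -0.11, and after background subtraction 2 were called higher and 2 lower. ACTR3 and ACTR2, the actin-related proteins of the Arp2/3 complex, fell from a mean of 668 to 269 CPM (edgeR adjusted p = 0.000610) and of 630.5 to 241 CPM (0.00122), while ACTB stood at -0.89 (edgeR adjusted p = 0.0738) and TUBA1B at 0.28 (0.593). Of 16 WD40-repeat and other clients 2 rose and 4 fell, with a median of -0.18. After background subtraction 1 was called higher and 2 lower of 14 tested. GNB4 and PPP2R2B rose, from means of only 0.20 and 0.24 CPM in cells to 4.04 and 8.33 CPM in vesicles. Neither was tested after subtraction. DCAF7 fell from a mean of 245 to 95.2 CPM (edgeR adjusted p = 8.31e-05) and the tumour suppressor VHL from 66.9 to 27.7 CPM (0.000146). Of 9 genes of the R2TP and prefoldin-like complex 2 were called lower, RPAP3 (-0.91, edgeR adjusted p = 0.00343) and URI1 (-0.70, 0.0393), and 0 higher. After background subtraction, and likewise in the 5 lower-background lines, the counts were 0 lower and 2 higher (UXT and POLR2E), with RPAP3 at -0.31 (0.283) and URI1 at 0.0048 (0.988) after subtraction. Of 15 tested partners of HSP70 and HSP90, 1 rose and 7 fell, with a median of -0.70. After background subtraction 1 was called higher and 2 lower (median -0.013), and in the 5 lower-background lines 1 higher and 1 lower. BAG3, a stress-induced HSP70 co-chaperone, stood at -1.25 (SE 0.23) and HSPA4, an HSP70 nucleotide exchange factor, at -1.54 (SE 0.29), and these were the 2 still called lower after background subtraction (edgeR adjusted p = 0.0333 and 0.0125).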

How the data were processed

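The authors deposited 1 table of whole-number read counts (17113 protein-coding symbols, 20 libraries), used here unchanged. The submitters' processing notes name STAR, featureCounts and hg19. Their versions, the annotation and whether strand was used are not given in the sources used here. Without a strand setting, reads cannot be assigned between TCP1 and ACAT2, which share 8.05% of the TCP1 exonic length on opposite strands, or between CCT5 and an antisense RNA over 30.1% of its exons (GENCODE 29), and reads of processed pseudogenes may be counted or lost.

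The 8 genes were fitted with all genes by edgeR 4.0.16 (robust quasi-likelihood, TMM, filterByExpr, cell line as a block) in R 4.3.3, with Benjamini-Hochberg adjustment over 15130 genes. SEs were taken as the size of the log2 fold change over the root of edgeR's F. Lines pair the libraries by label (correlation of a line's deviations in its 2 compartments 0.0846 to 0.546). The cells of SNU-C1, WiDr and LS123, all higher-background lines, correlated best with the vesicles of another line. DESeq2 1.42.0 was an alternative. Background counts came from a quasi-Poisson fit to silent genes on exonic length and GC, omitting the top 2% per library, with lengths for 99.95% of genes. Pair tests added 0.5 counts and were exact sign-flip tests in Python with numpy 2.4.6. Scripts were tested on simulated data.

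The members, lists and tests were chosen with earlier results of these data known. Named genes were the 8 subunits, the 2 smallest adjusted p of each related list, and the 5 genes most like the mean of the 8 in each compartment (at least 10 CPM). CCT6B, ACTB, TUBA1B, TUBB3, TUBB6, GNB4, PPP2R2B, EPCAM, CDH1, CSF1R, HBB, VWF, UXT, POLR2E, TBCA, TBCB, MRPL18, TSACC, PFDN1, PFDN2 and PFDN4 were named after their values were seen. A count of 0 allows up to 3 counts, 0.0802 to 0.121 CPM in cells and 0.123 to 1.72 CPM in vesicles, for counting error only.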

Additional observations from a re-analysis of the deposited data

Results flagged for a closer look

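CCT2 of SNU-C1 lay apart from the other 9 lines in its vesicle-to-cell ratio, at -4.248 on the log2 scale (gap over range 0.546). CCT7 in SW480 vesicles lay above the other 9 vesicle libraries, at 1179 CPM (gap over range 0.489). Of 26 sets of 10 values examined 2 held such a value, and chance gives about 1 in 20.

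The vesicle-to-cell change differed between the 5 higher-background and the 5 lower-background lines for 6 subunits (interaction in edgeR, TMM): by -1.249 for TCP1, -1.601 for CCT3, -1.795 for CCT4, -1.923 for CCT6A, -1.363 for CCT7 and -1.869 for CCT8. Depth differs between these sets of lines too, and their parts in the result cannot be told apart.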

How the results depend on the processing

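Of the 8 subunits 3 were called lower in vesicles, and this count held within 1.5 times in 4 of 22 alternatives. It was 0 with DESeq2 size factors in edgeR, with library size only, with upper-quartile scaling, with the DESeq2 Wald test (smallest adjusted p = 0.0689), with no replicate block, in the 5 lower-background lines, after background subtraction and with only the genes at the filter limit in every cell library. Leaving out 1 line gave 0 (LoVo, LS1034, WiDr or LS123) to 7 (HT-29) called, with 1 without SNU-C1 and 5 without SW480, while the median change was -0.37 without LoVo and -0.98 to -0.60 without any other line, and 15.8% (without LoVo) to 28% of all genes were called lower. Chosen after the data were seen, leaving out HT-29 and WiDr, or HCT 116 and LS123, gave 1 each (CCT5), and the 5 higher-background lines alone gave 8. Of all genes 25.9%, 26.1% and 25.5% were called lower in these fits, in that order. Direction reversed for TCP1 (0.20), CCT2 (0.079) and CCT7 (0.079) with upper-quartile scaling. It reversed in the 5 lower-background lines for TCP1 (0.11), CCT2 (0.26), CCT4 (0.10), CCT6A (0.19), CCT7 (0.030) and CCT8 (0.084). After background subtraction TCP1 (0.26), CCT2 (0.10), CCT6A (0.0081) and CCT7 (0.13) were positive, as was TCP1 (0.054) with only the genes at the filter limit in every cell library. Also added later, the number of subunits differing between higher- and lower-background lines went from 6 to 0 with DESeq2 size factors, upper-quartile scaling or background subtraction, and to 1 with library size only (2.83% of all genes). The cause was not tested. The count of subunit pairs called was 0 in all 14 alternatives, of which the fit with no replicate block (no pairing of lines) had a smallest adjusted p of 0.922 and the 5 lower-background lines could not reach the threshold (smallest p = 0.0625). The lowest subunit count was 92, in the shallowest vesicle library.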
